A study of Rattus norvegicus with 12 samples.

Results

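Differentiated cultures of rat brain neural stem cells (NSCs) were compared with proliferative ones across all genes of an expression array. The comparison used 6 of the 12 arrays of the series, 3 of each state. The titles of the differentiated group carry the word "fenhua", which is Chinese for differentiation. The other 6 arrays hold spinal cord NSCs in the same states and enter only the shared estimate of the spread and the last comparison. Both brain groups came from brain of Sprague Dawley rats at postnatal day 3 to 5. The labels name no genotype, transgene or added agent for either group, and the procedure and length of differentiation are not given in the sources used here. Whether a group's 3 arrays are separate cultures or animals is not in the labels, and a p-value is set against array-to-array spread alone, possibly technical. Each array (Rat230_2) reads labelled copies of the RNA of a whole culture, so fewer cells of a type and less RNA per cell cannot be told apart.

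NSCs are kept dividing in culture by growth factors that act through receptor tyrosine kinases and the ERK kinases, and they give rise to neurons, astrocytes and oligodendrocytes when they leave the cycle. A growing cell spends much of its capacity on making ribosomes, nucleotides and polyamines. Astrocytes clear glutamate and potassium, burn fatty acids and export lipid in lipoproteins, while oligodendrocytes build the galactolipids and adhesion proteins of myelin. Both cell types also make the proteoglycan matrix of the brain.

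Values are log2 signals, so that a step of 1 is a doubling, and every change is differentiated minus proliferative. A gene was called when limma's adjusted p, over all 20834 probe sets tested, was under 0.05. Of 11218 genes tested, 2702 rose (24.1%) and 3193 fell (28.5%), and 1314 of the rises and 925 of the falls were at least 2-fold. The median change over these genes was -0.06. Counts given for gene groups below stand beside these shares of rises and falls. The arrays of the 2 brain groups did not overlap for 2634 of the rises and 3122 of the falls, so a lack of overlap is common among called genes. Rises made up 50.6% of the calls over probe sets (4942 up and 4821 down), and 38.2% after each array was centred on its median (3760 up and 6078 down), which moved the median change of all probe sets to -0.15. Arrays of a brain group correlated at 0.95 to 0.98 and arrays of different brain groups at 0.85 to 0.86 across probe sets, and probe sets of one array are not independent of each other. The deposited signal falls into noise at its lower end. Where a gene had several probe sets, the one brightest over the 12 arrays was used. An array's 40th percentile, between 5.91 and 6.35 on the brain arrays, was taken as a floor, and a fold is written as "at least" where any array of the lower group lay under its floor and was set to it. The defining markers of the label were present in the proliferative cultures: Nes, the filament nestin, read from 10.93, 10.81 and 11.39 to 10.05, 10.31 and 10.29 across states, and Sox2, a factor that maintains NSCs, from 12.65, 12.53 and 12.69 to 13.17, 13.29 and 13.26. Nes fell 1.77-fold and Sox2 rose 1.54-fold (adjusted p = 2.3e-05), and of the 2 other probe sets of Sox2 another rose and the last was not called. Of 12 neural stem and progenitor cell markers tested, 7 rose and only Nes fell (median change 0.30).

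The largest rises, taken only from genes whose brain groups did not overlap, included genes of glia and of lipid handling. Tril, an accessory protein of Toll-like receptors found on astrocytes, read 7.21, 7.46 and 6.82 on the proliferative arrays and 13.03, 13.01 and 13.06 on the differentiated arrays. Pnlip, the pancreatic triglyceride lipase, read 6.57, 7.79 and 6.59 on the proliferative arrays and 13.01, 12.78 and 12.65 on the differentiated arrays. The states stood far apart for both genes, with a rise of 58.4-fold for Tril (adjusted p = 2.53e-10) and 56.9-fold for Pnlip (adjusted p = 1.23e-09). Enpp6, a choline phosphodiesterase of newly formed oligodendrocytes, went from 2.47, 6.26 and 4.51 to 10.81, 10.52 and 10.32. Aldh1a1, a dehydrogenase that makes retinoic acid, went from 5.69, 5.96 and 2.39 to 10.85, 10.72 and 10.77. Proliferative arrays were scattered under or near the floor for these 2 genes, which leaves rises of at least 21.6-fold and at least 25.5-fold. Selenop, the plasma protein that carries selenium, rose 25.5-fold (from 8.70, 8.07 and 6.997 to 12.51, 12.69 and 12.60; adjusted p = 8.65e-08). A2m, a broad protease inhibitor, rose 24.7-fold (from 8.47, 7.94 and 8.49 to 12.87, 12.95 and 12.96; adjusted p = 7.44e-08). Scrg1 rose 30.9-fold, Ugt8 29.9-fold, Mag 29.04-fold, Aqp4 27.7-fold and Ifgga2l1, an interferon-inducible GTPase, at least 25.9-fold. Slc25a18, the mitochondrial glutamate carrier, rose at least 22.3-fold, Tnr, the matrix protein tenascin-R, at least 24.1-fold, Tmem163, a zinc transporter, at least 22.8-fold and Dusp15, a phosphatase of the oligodendrocyte lineage, at least 22.2-fold.

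The largest falls, chosen in the same way, included secreted growth factors, surface proteins and a chromatin protein. Cd93, a lectin-like receptor best known from endothelium and myeloid cells, read 12.69, 12.52 and 13.12 on the proliferative arrays and 4.22, 6.29 and 6.25 on the differentiated arrays. Differentiated arrays lay near or under the floor, so that Cd93 fell at least 88.7-fold (adjusted p = 2.48e-07). Of 6 endothelial markers tested, 2 fell (Plvap, at least 7.53-fold, and Flt1, at least 1.87-fold). The 1 that rose did so with all 6 arrays under the floor. The defining marker Pecam1 was under the floor on all 6 arrays. Hbegf, a ligand of the EGF receptor, read 12.65, 13.10 and 12.87 on the proliferative arrays and 8.37, 8.53 and 8.39 on the differentiated arrays, and fell 21.8-fold (adjusted p = 1.12e-06). Emp1, an epithelial membrane protein, read 13.47, 13.45 and 13.54 on the proliferative arrays and 8.99, 9.42 and 9.60 on the differentiated arrays, and fell 17.8-fold (adjusted p = 9.82e-10). Hmga1, a protein that bends DNA in growing cells, read 13.06, 13.22 and 13.41 on the proliferative arrays and 9.58, 9.37 and 9.32 on the differentiated arrays, and fell 13.99-fold (adjusted p = 1.41e-07). For these 3 genes the arrays of a state lay within 0.7 of each other. Igfbp3, which binds insulin-like growth factors, fell 16.2-fold (from 14.02, 14.17 and 14.40 to 10.31, 10.19 and 10.04). Plau, the urokinase plasminogen activator, fell at least 22.2-fold, Aldh1a3, another retinaldehyde dehydrogenase, 23.3-fold, and Areg, the EGF receptor ligand amphiregulin, at least 16.3-fold. Fxyd5, a regulator of the sodium pump, fell at least 14.4-fold, Pnoc, the precursor of nociceptin, 19.7-fold, Gchfr, which restrains GTP cyclohydrolase, 19.3-fold, and Ap1s3, a subunit of the clathrin adaptor AP-1, 15.1-fold. Mamdc2 fell at least 14.9-fold, Sectm1b at least 13.7-fold and Bmp2, a bone morphogenetic protein, 13.1-fold.

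**Figure D1:**
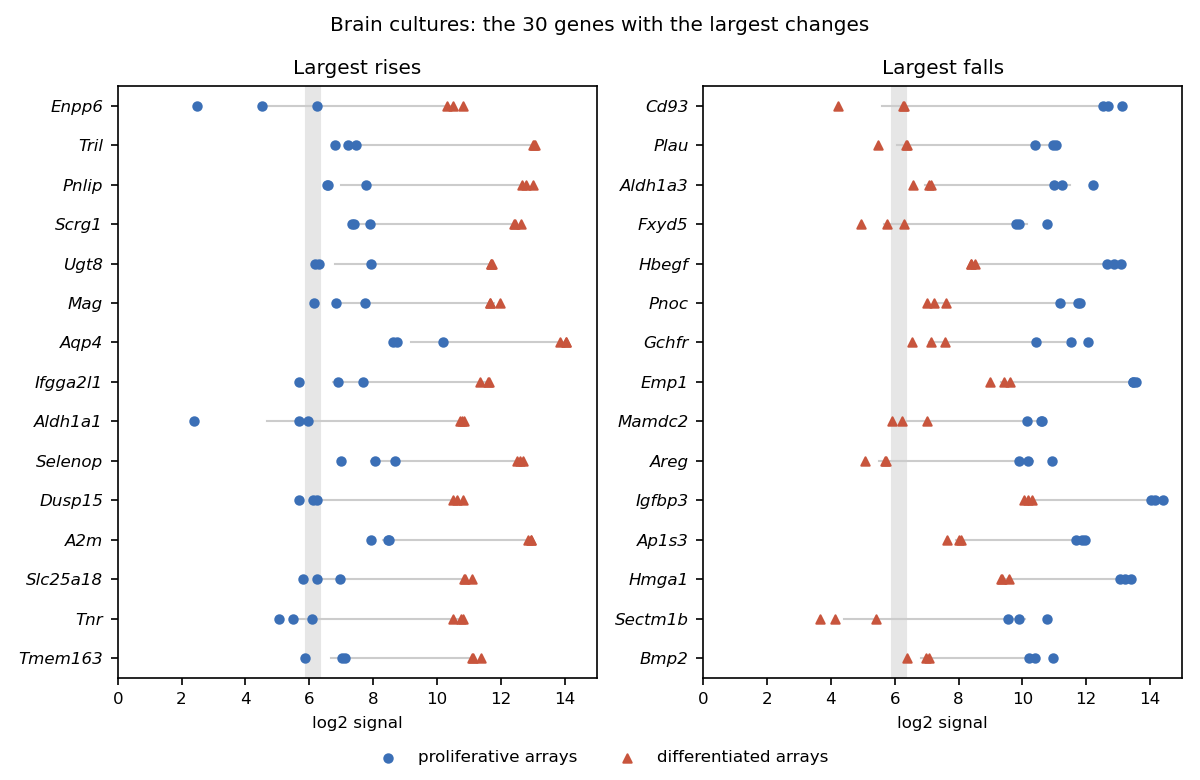
Log2 signal (x axis) of the 15 genes with the largest rises (left) and the 15 with the largest falls (right) on each of the 3 proliferative (circles) and 3 differentiated (triangles) brain arrays; the grey line joins the group means and the grey band spans the arrays' 40th percentiles. For the ranking a group was set to the floor only where all 3 of its arrays lay under it. The genes were chosen so that in every row the 3 arrays of one state lie apart from the 3 of the other. Several lower groups, such as proliferative Enpp6 and differentiated Cd93, lie at or under the band.

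The machinery that makes ribosomes fell almost as a whole. Of 66 tested genes for ribosome biogenesis, 63 fell and 0 rose, with a median change of -1.06, against 28.5% falls and a median of -0.06 over all genes. Nop2, a methyltransferase of ribosomal RNA, read 10.62, 10.79 and 10.61 on the proliferative arrays and 9.004, 9.12 and 9.04 on the differentiated arrays. Gnl3, the nucleolar GTPase nucleostemin, went from 11.56, 11.70 and 11.42 to 10.34, 10.17 and 9.99. Nhp2, a protein of the particles that modify ribosomal RNA, went from 12.08, 12.13 and 11.84 to 10.41, 10.45 and 10.15. The states were separate for all 3 genes, which fell 3.07-fold, 2.62-fold and 3.20-fold (adjusted p = 2.95e-06, adjusted p = 1.35e-05 and adjusted p = 1.17e-06). Ddx10, an RNA helicase, fell 2.95-fold, and Utp18, of the complex that processes the small subunit, at least 3.58-fold. Fbl, the methyltransferase fibrillarin, fell 2.38-fold, Ncl, nucleolin, 1.58-fold, and Polr1a, the largest subunit of RNA polymerase I, 1.996-fold (from 8.49, 8.88 and 8.39 to 7.84, 7.31 and 7.63). The 5S rRNA control of the array moved the same way, from 9.50, 11.02 and 9.61 to 7.85, 8.19 and 8.05, and its part in these results was not tested.

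Other steps of protein synthesis fell in smaller amounts. Of 30 transfer RNA synthetases, which load amino acids onto their transfer RNAs, 19 fell and 0 rose (median -0.59). Yars2, the mitochondrial tyrosine enzyme, fell 3.49-fold (from 10.39, 10.63 and 9.84 to 8.33, 8.65 and 8.46; adjusted p = 2.59e-05), and Vars1, the valine enzyme, 2.47-fold. Mitochondrial ribosomal proteins fell in 47 of 70 cases (median -0.43), led by Mrpl38 at 2.82-fold and Mrpl55 at 2.33-fold, and 1, Mrpl36, rose. Translation factors fell in 44 of 64 cases and rose in 6 (median -0.45). Eif4ebp1, which holds back the cap-binding factor, read 11.03, 10.76 and 11.04 on the proliferative arrays and 9.50, 9.57 and 9.04 on the differentiated arrays, a fall of 2.98-fold (adjusted p = 4.92e-06). Its partner Eif4e, the cap-binding factor, fell 1.39-fold, and the elongation factor Eef1a1 was not called (log2 change -0.02, adjusted p = 0.871). Cytosolic ribosomal proteins fell in 25 of 46 cases by small amounts (median -0.34, with 0 falls of 2-fold or more). Proteasome genes fell in 30 of 44 cases (median -0.35), and the 4 that rose included the interferon-induced subunits Psmb8 (3.58-fold) and Psmb9 (3.27-fold). Heat shock proteins and chaperones fell in 41 of 74 cases and rose in 8, with Hspa1a, the inducible HSP70, 3.76-fold lower and Cryab, a small heat shock protein, 3.22-fold lower. Splicing and RNA-binding proteins fell in 63 of 122 cases and rose in 10, with the neuronal factors Elavl2 and Celf4 lower by 4.40-fold and 4.08-fold.

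**Figure D2:**
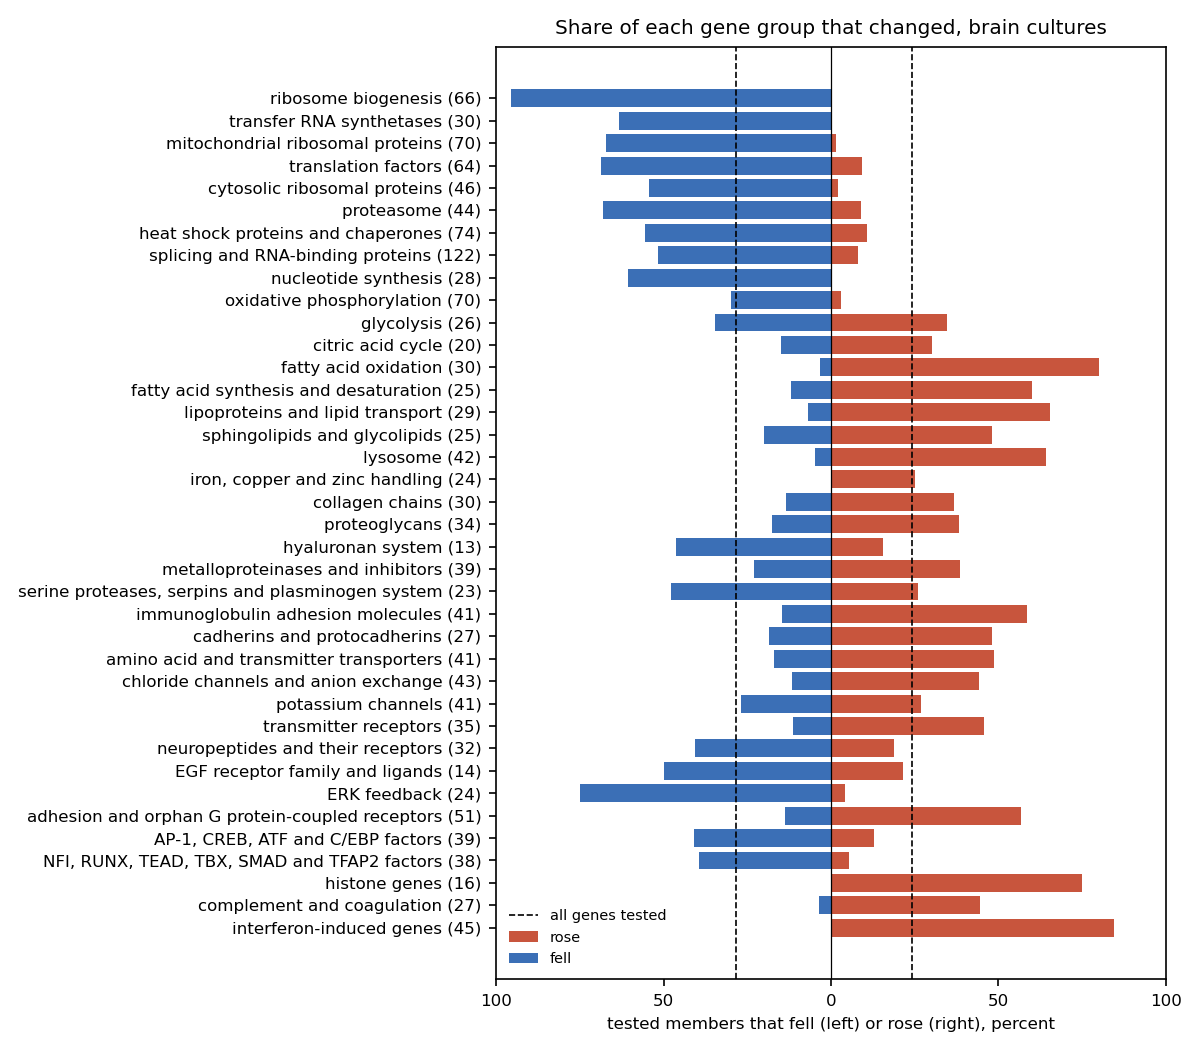
Percent of tested members that fell (left bars) or rose (right bars) in each of 38 gene groups, with the number tested in brackets and dashed lines at the shares over all genes tested, 28.5% falls and 24.1% rises. Ribosome biogenesis reaches furthest to the left and interferon-induced genes furthest to the right of the groups drawn.

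The E-box CACGTG is a palindrome bound by MYC with MAX and by other helix-loop-helix factors. Among the ribosome biogenesis genes it lay in 20 of 61 RefSeq promoters (build GRCr8, 300 bases that span the start of the gene), or 32.8%. The share was 9.51% over the 9376 tested genes with a promoter and 6.65% over all 27457 promoters of that length. For transfer RNA synthetases it was 17.9%, for translation factors 20.3% and for nucleotide synthesis 11.5%. Cytosolic and mitochondrial ribosomal proteins both had 7.14%, and all genes that fell 11.6%. A match is a string of letters and not a measured binding site. The promoters of Gnl3 (chr16:6219733-6220032, minus strand) and Nop2 (chr4:159618716-159619015, plus strand) are shown from 5′ to 3′ with the E-box in capitals, as 2 members described above that hold it.
Gnl3: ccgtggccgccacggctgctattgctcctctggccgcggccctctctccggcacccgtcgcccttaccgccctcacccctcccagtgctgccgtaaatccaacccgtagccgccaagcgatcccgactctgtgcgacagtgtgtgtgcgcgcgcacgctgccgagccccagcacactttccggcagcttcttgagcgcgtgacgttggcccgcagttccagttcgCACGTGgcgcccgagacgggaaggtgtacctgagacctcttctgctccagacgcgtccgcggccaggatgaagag
Nop2: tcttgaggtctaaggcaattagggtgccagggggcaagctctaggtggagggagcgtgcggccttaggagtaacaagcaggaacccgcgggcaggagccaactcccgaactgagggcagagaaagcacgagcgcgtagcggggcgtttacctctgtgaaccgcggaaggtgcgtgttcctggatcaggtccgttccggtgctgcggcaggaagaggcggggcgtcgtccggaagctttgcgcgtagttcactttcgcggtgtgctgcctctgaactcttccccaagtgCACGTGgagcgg
Among factors that bind an E-box, Myc read 11.0004, 11.17 and 10.71 on the proliferative arrays and 9.82, 9.83 and 9.75 on the differentiated arrays. It fell 2.23-fold (adjusted p = 8.26e-06), with no overlap. Mycn and Mycl, its paralogues, rose 2.49-fold (from 7.19, 7.59 and 7.07 to 8.35, 8.76 and 8.70) and 3.85-fold (from 7.81, 7.33 and 7.57 to 9.61, 9.38 and 9.57). Max, the partner of all MYC proteins, was not called (log2 change -0.08, adjusted p = 0.502), while Mxd4 and Mxi1, which pair with MAX and repress, rose 2.84-fold and 1.93-fold. A link between these factors and the ribosome biogenesis genes was not tested.

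No nucleotide synthesis gene rose and 17 of 28 fell (median -0.58). Hprt1, which salvages purines, went from 12.09, 11.98 and 12.30 to 10.10, 10.04 and 9.96. Umps, which makes UMP, went from 10.63, 10.86 and 10.31 to 9.55, 9.48 and 9.51. They fell 4.26-fold (adjusted p = 6.56e-09) and 2.13-fold (adjusted p = 0.000202), and proliferative arrays were the higher ones without overlap. Adss2 and Adsl, which make AMP, fell 3.63-fold and 3.33-fold, and Uck2, a uridine kinase, 2.79-fold. The ribonucleotide reductase subunit Rrm1 was not called (log2 change -0.06, adjusted p = 0.782). Among polyamine genes and their urea cycle neighbours 7 of 14 fell and 3 rose. Sms, spermine synthase, read 12.09, 12.13 and 12.05 on the proliferative arrays and 10.01, 10.20 and 10.02 on the differentiated arrays. Sat1, the acetyltransferase that starts polyamine breakdown, read 10.88, 10.95 and 11.15 on the proliferative arrays and 13.33, 13.13 and 13.12 on the differentiated arrays. Sms fell 4.03-fold (adjusted p = 1.55e-08) and Sat1 rose 4.61-fold (adjusted p = 6.44e-10). Odc1, the rate-limiting decarboxylase, fell 1.82-fold, Srm, spermidine synthase, 2.13-fold, and Dhps and Dohh, which build hypusine on a translation factor, 1.83-fold and 2.16-fold. Of 23 genes of serine, glycine and folate carbon 5 rose and 9 fell (median -0.13). The mitochondrial folate enzymes Mthfd2 and Mthfd1l fell 3.21-fold and 2.31-fold, and Shmt2, which splits serine, 1.83-fold. Aldh1l1, the folate dehydrogenase that marks astrocytes, rose 3.81-fold. Phgdh, the entry to serine synthesis, was not called (log2 change 0.46, adjusted p = 0.155).

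Central carbon metabolism changed in single genes more than as a whole. Of 26 glycolysis genes 9 rose and 9 fell, of 20 citric acid cycle genes 6 rose and 3 fell, and of 70 oxidative phosphorylation subunits 2 rose and 21 fell. None of the oxidative phosphorylation subunits changed 2-fold. Aldoc, the brain form of aldolase, went from 9.81, 9.53 and 10.02 to 12.65, 12.66 and 12.61, and the muscle form of phosphofructokinase, Pfkm, from 9.13, 9.04 and 9.27 to 10.29, 10.13 and 10.42. They rose 7.22-fold (adjusted p = 7.73e-07) and 2.19-fold (adjusted p = 0.000947). The lactate dehydrogenase subunits crossed, since Ldhb rose 2.37-fold (from 11.94, 11.69 and 12.20 to 13.34, 13.10 and 13.12) and Ldha fell 1.91-fold (from 13.80, 13.70 and 14.07 to 13.04, 12.85 and 12.88). Slc2a3, the neuronal glucose transporter, fell 3.99-fold (adjusted p = 1.43e-05), whereas Slc2a1, its widespread relative, was not called (log2 change -0.02, adjusted p = 0.908). Slc16a1, a lactate carrier, rose 2.75-fold. Glycogen genes rose in 7 of 15 cases and fell in 2: Pygb, brain glycogen phosphorylase, rose 2.92-fold and Gbe1, the branching enzyme, 2.36-fold. In the pentose phosphate path Rpia, which makes ribose phosphate, fell 4.64-fold (from 10.77, 11.17 and 10.84 to 8.80, 8.73 and 8.61) and Tkt, transketolase, 1.87-fold.

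Fatty acid oxidation genes rose in 24 of 30 cases and fell in 1 (median 0.75), against 24.1% rises over all genes. Acot2, a mitochondrial thioesterase, read 7.59, 7.47 and 7.51 on the proliferative arrays and 9.97, 10.01 and 9.78 on the differentiated arrays. Hadha, which carries out the middle steps of the cycle on long chains, went from 10.15, 10.34 and 10.14 to 11.24, 11.08 and 11.10. Cpt1a, the carnitine transferase that limits entry into mitochondria, went from 10.22, 10.08 and 10.42 to 11.08, 10.89 and 11.05. These 3 genes rose 5.26-fold, 1.91-fold and 1.70-fold (adjusted p = 9.4e-09, adjusted p = 3.4e-06 and adjusted p = 0.00023), each without overlap. Hadh rose 3.69-fold, Ech1 3.04-fold, Acadl, a long-chain dehydrogenase, 2.17-fold, and Etfdh, which passes the electrons on, 2.15-fold. Ppargc1a, a coactivator of mitochondrial genes, rose 2.06-fold (adjusted p = 0.0105), and the receptor Ppara was under the floor on all 6 arrays. Synthesis rose in 15 of 25 genes and fell in 3. Acsbg1, the bubblegum acyl-CoA synthetase of astrocytes, rose 21.9-fold (from 7.70, 7.17 and 6.91 to 11.81, 11.69 and 11.64; adjusted p = 4.18e-09). Srebf1, the factor that drives lipid synthesis, rose 3.92-fold (from 9.58, 9.43 and 9.73 to 11.66, 11.45 and 11.54), Fads2, a desaturase, 1.99-fold, and Scd2, another, 1.51-fold. Fasn, fatty acid synthase, and Acaca, which feeds it, were not called on their brightest probe sets (log2 changes of 0.07 and 0.28), though a second probe set of Fasn rose.

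Genes that carry lipid between cells rose too. The lipoprotein and lipid transport group had 19 rises and 2 falls among 29 (median 0.79). Abca1, the pump that loads cholesterol onto apolipoproteins, read 9.94, 8.60 and 8.97 on the proliferative arrays and 12.30, 12.38 and 12.26 on the differentiated arrays, and Clu, clusterin, a carrier protein made by astrocytes, 10.98, 10.92 and 10.66 on the proliferative arrays and 13.42, 13.18 and 13.36 on the differentiated arrays. Abca1 rose 8.84-fold (adjusted p = 3.42e-06) and Clu 5.52-fold (adjusted p = 7.95e-05). Apod, an apolipoprotein of glia, rose at least 7.54-fold, and Pltp, which moves phospholipid between particles, at least 5.82-fold. Several genes of myelin lipids rose: Gal3st1, which makes sulfatide, rose 8.44-fold (from 6.53, 8.07 and 6.66 to 10.23, 10.16 and 10.10), Fa2h, which hydroxylates the fatty acids, 5.69-fold (from 6.58, 6.80 and 5.91 to 9.02, 8.995 and 8.80), and Galc, which degrades galactocerebroside, 2.79-fold. Cers6, a ceramide synthase, fell 3.31-fold, so that 12 of 25 sphingolipid genes rose and 5 fell. Enpp2, autotaxin, which makes lysophosphatidic acid, rose 13.96-fold (from 7.35, 7.56 and 7.17 to 11.24, 11.10 and 11.16) and Mgll, which splits the endocannabinoid 2-arachidonoylglycerol, 5.78-fold. Agpat2, which makes phosphatidic acid, fell 3.65-fold and Plin2, a coat protein of lipid droplets, 3.04-fold.

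**Figure D3:**
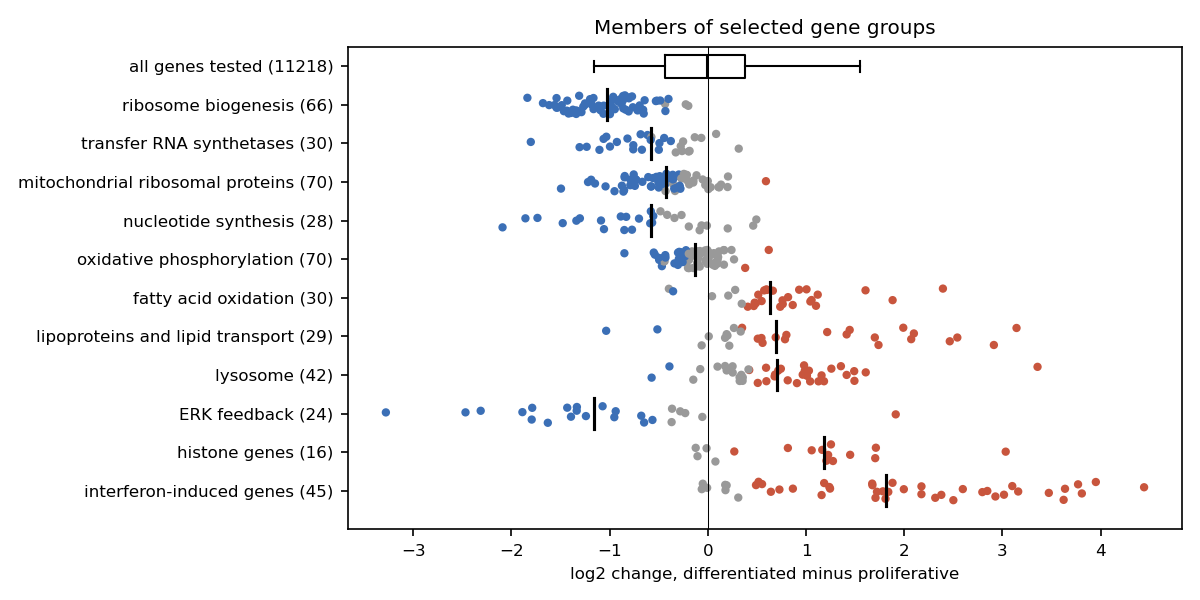
Log2 change, differentiated minus proliferative (x axis), of each tested member of 11 gene groups (dots; members that rose, fell or were not called in red, blue and grey), with values under an array's 40th percentile raised to it and a black bar at the median; the box over all 11218 genes spans the quartiles and its whiskers the 5th to 95th percentile. Ribosome biogenesis members all lie below 0 and fatty acid oxidation, lysosome and interferon members mostly above it.

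Of 34 genes for glutamate, glutamine and other amino acids 17 rose and 9 fell. Glul, the glutamine synthetase of astrocytes, read 11.62, 10.82 and 11.51 on the proliferative arrays and 13.42, 13.32 and 13.34 on the differentiated arrays, and Slc1a2, the main astrocytic glutamate transporter, 6.12, 6.27 and 6.58 on the proliferative arrays and 8.43, 8.33 and 8.60 on the differentiated arrays. They rose 4.12-fold (adjusted p = 2.21e-07) and at least 4.32-fold (adjusted p = 0.0012). Slc1a3, the other astrocytic transporter, rose 2.28-fold, and of its other probe sets one rose (log2 change 1.61) and one fell (-0.89). Glud1, glutamate dehydrogenase, rose 1.46-fold. Slc1a5, a glutamine carrier of growing cells, went from 10.37, 10.20 and 10.02 to 7.79, 7.37 and 7.98, a fall of 5.60-fold (adjusted p = 7.54e-07). Gad1 and Gad2, which make GABA, fell 6.31-fold and at least 8.98-fold. Aspa, which splits N-acetylaspartate in oligodendrocytes, rose at least 9.75-fold, and Folh1, a peptidase that releases glutamate, at least 4.94-fold. Bcat1, the cytosolic enzyme of branched amino acids, fell 2.63-fold and Asns, asparagine synthetase, 1.84-fold.

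Small-molecule signals and redox genes went both ways. In retinoid metabolism the rise of Aldh1a1 and the fall of Aldh1a3 given above were joined by Crabp2, a retinoic acid carrier, which fell 3.82-fold (from 9.64, 9.43 and 10.34 to 7.91, 7.93 and 7.76), and Rarb, a retinoic acid receptor, which rose 2.80-fold (from 7.88, 7.68 and 8.25 to 9.58, 9.48 and 9.20; adjusted p = 3.6e-06). Cyp26b1, which destroys retinoic acid, fell at least 4.18-fold. Of 22 genes of the group 6 rose and 8 fell. In prostaglandin metabolism Ptgs2, the inducible cyclooxygenase, fell at least 6.79-fold (from 8.64, 9.31 and 9.24 to 5.28, 5.51 and 4.21) and Ptgr1, a prostaglandin reductase, 8.86-fold (from 9.92, 9.32 and 10.88 to 6.80, 6.97 and 6.90). Ptgds, the prostaglandin D synthase of brain, rose at least 3.72-fold. Antioxidant genes had 16 rises and 13 falls among 49, against 24.1% rises and 28.5% falls over all genes. Slc7a11, the cystine carrier, rose 5.09-fold, Mgst1, a microsomal glutathione transferase, 3.36-fold and Cat, catalase, 1.89-fold. Akr1b8, an aldo-keto reductase, fell at least 10.6-fold, Gss, glutathione synthetase, 3.44-fold and Gclm, a subunit of the limiting enzyme, 1.71-fold.

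Lysosomal genes rose in 27 of 42 cases and fell in 2 (median 0.73). Ctsc, cathepsin C, read 6.57, 7.40 and 6.64 on the proliferative arrays and 9.91, 10.38 and 10.39 on the differentiated arrays. Lamp1, a main protein of the lysosomal membrane, went from 12.56, 12.29 and 12.73 to 13.57, 13.49 and 13.47, and Lamp2, its relative, from 11.64, 11.26 and 11.97 to 13.16, 13.30 and 13.22. Ctsc rose 10.3-fold (adjusted p = 6.44e-06), Lamp1 1.97-fold (adjusted p = 5.98e-06) and Lamp2 3.05-fold (adjusted p = 1.98e-06), with the differentiated arrays higher throughout. Lgmn, an asparagine-specific protease, rose 2.81-fold, Ctsh 2.82-fold and Psap, the precursor of the saposins, 2.01-fold, while Ctsb was not called (log2 change 0.10, adjusted p = 0.616) and Cd68, a macrophage protein of lysosomes, fell 1.49-fold (adjusted p = 0.0341), a call lost without any one of 4 of the 6 arrays and with a pseudocount of 64 (adjusted p = 0.0562). Tfeb, a factor that switches on lysosomal genes, rose 2.27-fold (from 7.58, 7.25 and 7.31 to 8.49, 8.73 and 8.48; adjusted p = 8.77e-05). The E-box CACGTG lay in 9 of 35 lysosomal promoters (25.7%, against 9.51% of tested genes), and its longer form TCACGTGA in 11.4% against 1.66%. A link between Tfeb and these genes was not tested. The promoter of Lamp1 (chr16:83075014-83075313, minus strand), printed with each CACGTG in capitals, held 5 copies in 300 bases.
Lamp1: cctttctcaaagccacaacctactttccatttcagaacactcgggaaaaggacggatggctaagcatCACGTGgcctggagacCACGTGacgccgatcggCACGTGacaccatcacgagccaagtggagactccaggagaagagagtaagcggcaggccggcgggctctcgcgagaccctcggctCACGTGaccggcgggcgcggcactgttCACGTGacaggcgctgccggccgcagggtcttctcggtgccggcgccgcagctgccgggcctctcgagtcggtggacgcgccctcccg
Metal handling had 6 rises among 24, near the share of 24.1% over all genes, and 0 falls, against 28.5%. The largest rise was of Cp, the copper oxidase ceruloplasmin, at 8.40-fold (from 8.71, 8.34 and 8.96 to 11.78, 11.68 and 11.76; adjusted p = 0.000156).

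Some matrix genes rose and others fell. Bcan, brevican, the proteoglycan of the brain's own matrix, read 7.35, 7.19 and 7.27 on the proliferative arrays and 11.81, 11.78 and 11.68 on the differentiated arrays. It rose 22.4-fold (adjusted p = 1.75e-11), and the arrays of each state lay within 0.2 of each other. Its relative Vcan, versican, rose 2.71-fold (from 9.83, 10.28 and 9.96 to 11.39, 11.46 and 11.54), and Cspg5, the proteoglycan neuroglycan C, 3.98-fold (from 8.93, 8.96 and 9.59 to 11.28, 11.05 and 11.14). Tnr, which binds brevican, rose as given above, while Tnc, tenascin-C, was not called (log2 change -0.16, adjusted p = 0.366). Sparcl1, the matrix protein hevin, rose 10.1-fold (from 11.21, 11.05 and 11.23 to 14.54, 14.42 and 14.55) and Sparc, its relative, 3.30-fold (adjusted p = 0.000327). Sdc1, the cell surface proteoglycan syndecan 1, went from 10.06, 10.17 and 10.73 to 7.71, 7.76 and 7.67, a fall of 6.09-fold (adjusted p = 1.07e-07), and Col6a1 went from 10.32, 10.53 and 10.70 to 7.61, 7.74 and 7.55, a fall of 7.36-fold (adjusted p = 2.49e-09). Of 34 proteoglycans 13 rose and 6 fell. Collagen chains rose in 11 of 30 cases and fell in 4 (median 0.76, and 0.21 with low values at the floor). Basement membrane chain Col4a5 rose 4.60-fold and Col9a3 4.03-fold, whereas Col6a2, partner of Col6a1, fell 3.41-fold. The defining fibroblast chain Col1a1 was near the floor on all 6 arrays (5.85, 5.14 and 6.32 on the proliferative arrays and 6.60, 6.41 and 6.56 on the differentiated arrays) and not called (adjusted p = 0.0732). P4ha1 and P4ha2, which hydroxylate collagen, fell 2.22-fold and 2.50-fold, and Bmp1, which trims it, rose 3.47-fold.

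Hyaluronan genes fell in 6 and rose in 2 of 13 cases. Cd44, the hyaluronan receptor, read 13.01, 13.27 and 13.35 on the proliferative arrays and 11.66, 11.61 and 11.62 on the differentiated arrays. It fell 2.99-fold (adjusted p = 1.75e-07), and Has2, a hyaluronan synthase, 2.28-fold (from 9.96, 10.19 and 10.40 to 8.91, 9.07 and 9.02). Cemip, which breaks hyaluronan down, fell at least 5.37-fold, while Tnfaip6, which links it to proteins, rose at least 10.6-fold. Plaur, the receptor of Plau, fell at least 9.33-fold (from 9.15, 9.60 and 9.81 to 1.25, 3.23 and 5.22). Thbd, thrombomodulin, fell at least 11.98-fold and F2rl1, a protease-activated receptor, at least 9.36-fold (from 9.25, 9.66 and 9.99 to 6.27, 6.33 and 6.61). Serping1, the C1 inhibitor, rose 7.61-fold, Serpinf1, the pigment epithelium-derived factor, 5.36-fold and Prss23, a serine protease, 8.08-fold (from 8.41, 8.11 and 7.85 to 11.03, 11.21 and 11.18). Of 23 genes of this group 6 rose and 11 fell. Among metalloproteinases and their inhibitors, with 15 rises and 9 falls of 39, Mmp2, a gelatinase, rose 4.94-fold (from 7.65, 7.40 and 8.47 to 10.22, 10.09 and 10.11; adjusted p = 0.000245) and Mmp16 3.98-fold. Adamts1, which cuts versican, fell 7.27-fold (from 12.26, 12.44 and 12.83 to 9.64, 9.59 and 9.72) and Mmp13, a collagenase, at least 4.41-fold. Timp3 and Timp4 rose 2.81-fold and at least 2.14-fold, and Timp1 fell 1.71-fold.

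Adhesion proteins of the immunoglobulin family rose in 24 of 41 cases and fell in 6 (median 0.85). Nfasc, neurofascin, which joins glia to axons, read 8.48, 8.72 and 8.52 on the proliferative arrays and 12.86, 12.53 and 12.65 on the differentiated arrays. It rose 17.2-fold (adjusted p = 1.75e-11) with the states far apart, and its partner Cntn1, contactin, 4.14-fold (from 7.33, 7.67 and 7.75 to 9.76, 9.52 and 9.62). Ncam1 rose 7.77-fold (from 7.98, 7.59 and 6.999 to 10.57, 10.24 and 10.65; adjusted p = 8.68e-07) and Opcml 8.02-fold, while Flrt3 and Flrt2, which bind the latrophilin receptors, fell 2.19-fold and 2.13-fold. Cadherins rose in 13 of 27 cases and fell in 5: Cdh10 rose 7.41-fold, Cdh11 4.79-fold and Pcdh17 4.65-fold, and Fat4, a giant protocadherin, fell 1.91-fold. Cdh2, N-cadherin, was not called on its brightest probe set (log2 change 0.17, adjusted p = 0.24). Cldn11, the tight junction protein of myelin, rose 21.9-fold (from 8.36, 10.55 and 8.94 to 13.83, 13.71 and 13.66), or 33.9-fold without proliferative replicate 2, and Cldn1 fell at least 3.88-fold.

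Of 22 intermediate filament genes 4 rose and 9 fell. Krt18, a keratin of simple epithelia, read 9.80, 9.44 and 10.04 on the proliferative arrays and 5.82, 6.27 and 5.33 on the differentiated arrays, and its partner Krt8 9.51, 8.99 and 9.60 on the proliferative arrays and 6.63, 6.88 and 6.92 on the differentiated arrays. Krt18 fell at least 11.02-fold (adjusted p = 5.83e-07) and Krt8 5.89-fold (adjusted p = 4.48e-05). Lmna, lamin A, fell 4.34-fold (from 11.64, 11.67 and 12.07 to 9.76, 9.58 and 9.70; adjusted p = 1.65e-07). Gfap, the filament of astrocytes, rose 5.58-fold to 14.36, 14.20 and 14.36. Tppp, a tubulin-binding protein of oligodendrocytes, rose 17.2-fold (from 8.45, 8.63 and 8.44 to 12.79, 12.57 and 12.46). Among 52 actin and contractile genes there were 17 falls and 10 rises, with Actn1, an actin crosslinker, 2.85-fold lower and Cald1, caldesmon, 2.57-fold lower.

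Amino acid and transmitter transporters rose in 20 of 41 cases and fell in 7. Slc15a2, a peptide carrier, read 8.94, 8.97 and 9.85 on the proliferative arrays and 11.95, 12.04 and 12.08 on the differentiated arrays, and rose 6.81-fold (adjusted p = 4.72e-07). Slc38a3, a glutamine carrier, rose 4.35-fold (from 7.87, 6.68 and 8.12 to 9.85, 9.54 and 9.64). Slc17a6, a vesicular glutamate carrier of neurons, fell at least 3.23-fold. Chloride and bicarbonate transport had 19 rises and 5 falls among 43. Here Slc4a4 and Slc4a7, both sodium bicarbonate carriers, parted: Slc4a4 rose 4.23-fold (from 9.74, 9.63 and 9.77 to 11.61, 11.86 and 11.89) and Slc4a7 fell 6.25-fold (from 12.69, 13.09 and 13.05 to 10.37, 10.09 and 10.43). Clcn4, an endosomal chloride exchanger, rose 6.37-fold. Over all solute carriers 65 of 191 rose and 37 fell.

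Channels and pumps changed without a common direction. Potassium channels had 11 rises and 11 falls among 41: Kcna2 rose 6.35-fold, Kcnj10, the channel by which astrocytes clear potassium, at least 2.29-fold (from 5.87, 5.02 and 4.74 to 6.89, 7.51 and 7.50), and Kcnma1, a calcium-activated channel, fell 2.81-fold. Piezo1, a stretch-activated channel, fell 4.50-fold (from 10.07, 10.15 and 10.77 to 8.16, 8.32 and 7.99; adjusted p = 7.29e-07). Atp1b2, a sodium pump subunit of astrocytes, rose 3.59-fold and Fxyd1, a pump regulator, 3.93-fold. Aqp4, the water channel of astrocytes, went from 10.18, 8.63 and 8.75 to 13.85, 14.04 and 14.04, and Aqp9, which also carries glycerol, rose at least 4.96-fold. Transmitter receptors rose in 16 of 35 cases and fell in 4, with Glrb, a glycine receptor subunit, 7.29-fold higher and Gabrb1, a GABA receptor subunit, 5.95-fold higher.

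Genes of EGF receptor and ERK signalling changed at several levels. The arrays read RNA, and the activity of the receptor and of ERK was not tested. Among ligands, Hbegf and Areg fell as given above, and Tgfa, transforming growth factor alpha, went the other way, from 8.05, 8.60 and 8.53 to 10.28, 10.86 and 10.74, a rise of 4.69-fold (adjusted p = 5.68e-07). The receptor Egfr rose 2.14-fold (from 10.33, 9.79 and 9.98 to 10.88, 11.26 and 11.25), and Errfi1, which inhibits it, fell 3.10-fold. Genes that ERK switches on and that hold it back fell in 18 of 24 cases and rose in 1 (median -1.16). Dusp5 read 9.95, 10.11 and 10.18 on the proliferative arrays and 6.98, 6.56 and 6.86 on the differentiated arrays, and Dusp6 12.35, 12.56 and 12.89 on the proliferative arrays and 10.28, 10.004 and 10.10 on the differentiated arrays; both are phosphatases of ERK. They fell 9.71-fold (adjusted p = 3.71e-08) and 5.53-fold (adjusted p = 4.1e-09). Of the Sprouty inhibitors, Spry1 fell by 3.46-fold (from 9.46, 9.47 and 9.56 to 7.44, 7.59 and 8.08), Spry2 by 2.52-fold (from 12.66, 12.88 and 12.51 to 11.20, 11.48 and 11.36) and Spry4 by 3.70-fold, while Spry3 was the member of the group that rose, at least 3.77-fold (from 5.74, 5.84 and 5.45 to 8.13, 7.81 and 8.12). Etv4 and Etv5, factors that follow ERK activity, fell 1.94-fold and 1.48-fold. Of the FGF receptors, Fgfr2 rose 2.19-fold and Fgfr3 1.64-fold, while Fgfr1 was not called (log2 change 0.09, adjusted p = 0.455).

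**Figure D4:**
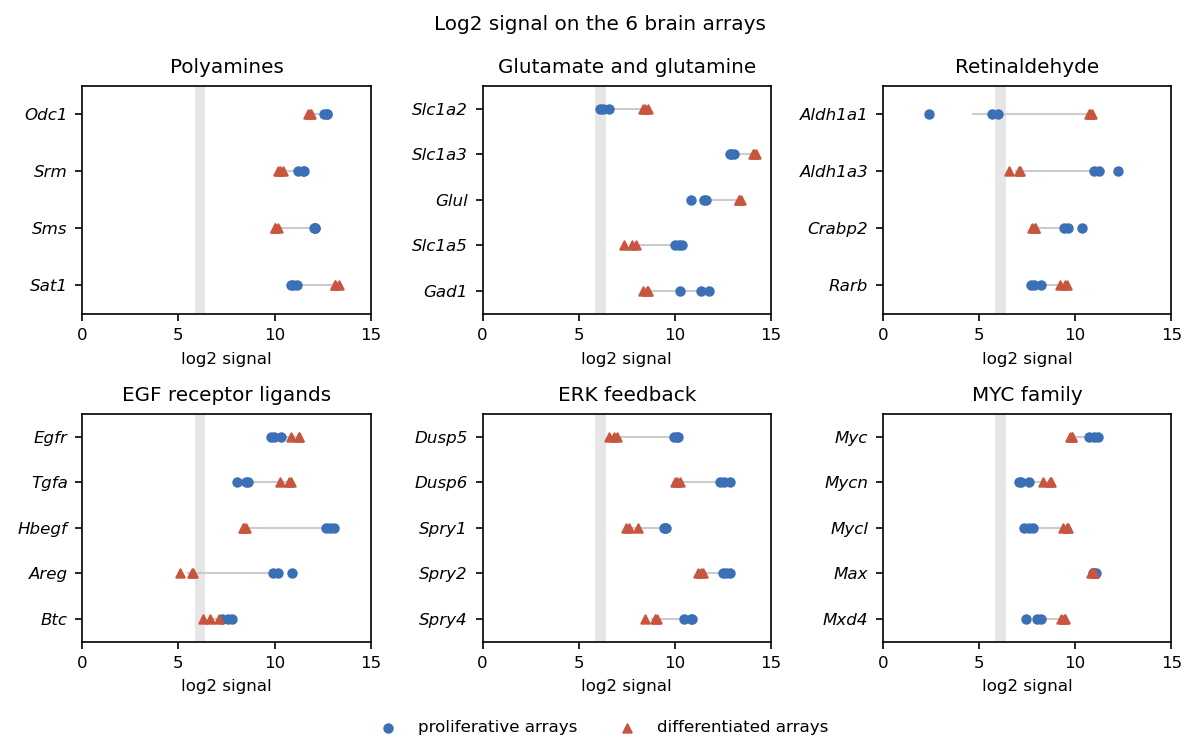
Log2 signal (x axis) of members of 6 pathways on the 3 proliferative (circles) and 3 differentiated (triangles) brain arrays; the grey line joins the group means and the grey band spans the arrays' 40th percentiles. Opposite moves within a pathway can be seen for Sms and Sat1, Slc1a2 and Slc1a5, Aldh1a1 and Aldh1a3, Tgfa and Hbegf, and Myc and Mycl.

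The TGF-beta and BMP system had 11 rises and 15 falls among 49, near the shares of 24.1% and 28.5% over all genes. Single ligands changed in both directions: Bmp4, Bmp6 and Tgfb2 rose, and Bmp2 and Gdf15 fell. Bmp4 read 5.76, 5.94 and 4.80 on the proliferative arrays and 10.61, 10.45 and 10.45 on the differentiated arrays, and Bmp2 10.22, 10.39 and 10.97 on the proliferative arrays and 6.40, 6.97 and 7.07 on the differentiated arrays. Bmp4 rose at least 21.01-fold (adjusted p = 3.79e-09) and Bmp2 fell 13.1-fold (adjusted p = 1.4e-07), each without overlap. Tgfb2 rose 7.42-fold (from 6.86, 6.54 and 6.71 to 9.66, 9.65 and 9.48), the receptor Bmpr1a 2.24-fold, and Gdf15, a stress-induced relative, fell 4.03-fold. Igfbp5 rose 5.10-fold while Igfbp3 fell, Irs2, an adaptor of the insulin receptor, fell 2.70-fold, and the receptor Igf1r fell 1.57-fold on its brightest probe set, a second one not being called. Vegfa, the endothelial growth factor, fell 3.62-fold (from 10.14, 10.59 and 10.11 to 8.30, 8.43 and 8.55; adjusted p = 1.12e-06), and Angptl4, which blocks lipoprotein lipase, rose 5.15-fold. Notch1 rose 1.97-fold (from 9.94, 10.08 and 10.23 to 11.08, 11.01 and 11.10), whereas the ligand Jag1 fell 4.89-fold and the targets Hes1 and Hey1 fell 2.13-fold and 1.54-fold. Tcf7l2, the factor of the Wnt pathway in oligodendrocytes, rose 3.40-fold (from 10.29, 10.21 and 10.55 to 12.23, 12.01 and 12.11), Sfrp2, a Wnt inhibitor, 3.95-fold, and Axin2, a target, was not called (log2 change 0.21, adjusted p = 0.571).

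Among neurotrophic factors, Cntf, a cytokine that acts on glia, rose 4.45-fold (from 7.82, 7.87 and 7.67 to 10.07, 9.90 and 9.85), and Ntrk2, the BDNF receptor, 2.70-fold. Clcf1 and Il11, of the same cytokine family as Cntf, fell at least 7.82-fold and at least 5.57-fold. Neuropeptides and their receptors fell in 13 of 32 cases and rose in 6. Their median change was -1.17, but 0.01 with low values at the floor. In both states 5 of the 32 lay under the floor, 2 of them called. Scg2, a protein of secretory granules, went from 13.02, 13.35 and 13.15 to 10.10, 10.30 and 10.13, a fall of 8.001-fold (adjusted p = 4.05e-10), and Vgf fell 5.68-fold. Gal, galanin, was uneven among proliferative arrays (from 8.14, 10.76 and 8.03 to 5.33, 5.62 and 5.60) and fell at least 6.41-fold, or 3.45-fold without proliferative replicate 2. Adhesion and orphan G protein-coupled receptors rose in 29 of 51 cases and fell in 7. Gpr37l1 and Gpr37, receptors of astrocytes and oligodendrocytes, rose 8.92-fold (from 9.38, 9.18 and 9.37 to 12.49, 12.44 and 12.47) and 6.07-fold, and S1pr3, a receptor of sphingosine phosphate, 10.3-fold. Sema5a, a guidance protein, rose 15.5-fold (adjusted p = 4.39e-08), and Epha2, an ephrin receptor, fell 6.38-fold.

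Several transcription factors that respond to growth signals fell. Fosl1, a FOS relative, read 11.61, 11.57 and 11.61 on the proliferative arrays and 8.10, 7.88 and 8.03 on the differentiated arrays, and Klf4 10.18, 10.15 and 10.75 on the proliferative arrays and 7.23, 6.82 and 7.05 on the differentiated arrays. Fosl1 fell 12.1-fold (adjusted p = 3.03e-08) and Klf4 10.04-fold (adjusted p = 2.64e-08), with arrays of a state within 0.7 of each other. Egr1 fell 4.33-fold and Jun 2.16-fold, but Fos itself rose 1.49-fold (from 10.82, 10.55 and 10.55 to 11.28, 11.24 and 11.12; adjusted p = 0.000834). AP-1, CREB, ATF and C/EBP factors fell in 16 of 39 cases and rose in 5. In the group of NFI, RUNX, TEAD, TBX, SMAD and TFAP2 factors 15 of 38 fell and 2 rose: Runx1 fell 3.01-fold, Smad3 2.71-fold, Cited2 3.74-fold and Tead1, partner of the Hippo coactivators, 1.77-fold, while Nfix, a factor of glial differentiation, rose 1.43-fold. Wwtr1, the Hippo coactivator TAZ, fell 2.84-fold (from 9.41, 9.81 and 9.67 to 8.04, 8.11 and 8.23).

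Several factors of the oligodendrocyte lineage rose. Myrf, which switches on myelin genes, read 6.28, 7.64 and 6.53 on the proliferative arrays and 11.06, 10.58 and 10.85 on the differentiated arrays, and Sox10, its partner, 6.05, 7.55 and 6.67 on the proliferative arrays and 10.74, 10.55 and 10.46 on the differentiated arrays. Myrf rose 16.1-fold (adjusted p = 7.44e-08) and Sox10 at least 13.7-fold (adjusted p = 1.38e-07). Nkx2-2 rose 6.20-fold, Olig1 2.29-fold, and Olig2 was not called (log2 change 0.43, adjusted p = 0.584). Bhlhe41, a clock repressor, rose 6.44-fold (from 8.16, 6.88 and 7.84 to 10.48, 10.16 and 10.30), and Bhlhe40, its paralogue, fell 4.18-fold (from 9.80, 9.81 and 10.23 to 8.12, 7.77 and 7.76). Thra and Thrb, the thyroid hormone receptors, rose 2.71-fold (from 8.77, 8.35 and 8.43 to 10.01, 9.84 and 10.02) and 2.46-fold (from 7.68, 7.33 and 7.59 to 8.96, 8.72 and 8.83), and Klf15, a target of glucocorticoids, 3.32-fold. Bcl11b fell at least 6.38-fold, Neurod1, a neuronal factor, at least 5.48-fold, and Dlx1, a factor of interneurons, 3.07-fold. Homeodomain, paired and LIM factors, with 9 rises and 9 falls of 50, showed no common direction, and Pax6 was not called (log2 change -0.01, adjusted p = 0.97).

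Among 51 cell cycle regulators there were 16 rises and 11 falls, and among 133 chromatin genes 25 rises and 37 falls. Over all genes the shares were 24.1% rises and 28.5% falls. Cdkn1c, the cycle inhibitor p57, read 7.85, 8.20 and 7.96 on the proliferative arrays and 11.70, 11.64 and 11.65 on the differentiated arrays. It rose 12.7-fold (adjusted p = 2.19e-10), Cdkn1b, its relative p27, 1.46-fold on its brightest probe set, and Cdkn1a, p21, was not called (log2 change -0.01, adjusted p = 0.98). Ccnd1, cyclin D1, fell 2.42-fold (from 13.87, 13.90 and 13.97 to 12.83, 12.54 and 12.55), and Cdk4, its kinase, was not called (log2 change -0.08, adjusted p = 0.43). Ccnb2, a cyclin of mitosis, rose 2.61-fold (from 9.32, 8.82 and 10.03 to 10.82, 10.79 and 10.70) and E2f2, a factor of S phase genes, at least 1.85-fold. Histone genes rose in 12 of 16 cases and fell in 0 (median 1.23). H1f2, a linker histone, went from 10.56, 9.96 and 10.68 to 13.27, 13.60 and 13.43, a rise of 8.19-fold (adjusted p = 8.7e-08), and H1f4 rose 2.73-fold. Near-identical histone genes can share probes, so that these values may each stand for several genes, and replication-dependent histone messages mostly lack a poly(A) tail. Sirt2, a deacetylase abundant in oligodendrocytes, rose 8.51-fold (from 10.78, 10.73 and 10.76 to 13.97, 13.73 and 13.83), Hells, a helicase, fell 2.84-fold, and Dnmt1, which maintains DNA methylation, fell 1.61-fold.

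Interferon-induced genes rose in 38 of 45 cases with 0 falls (median 1.997). Rsad2, viperin, which stops viral RNA synthesis, read 7.77, 8.31 and 7.26 on the proliferative arrays and 11.72, 11.88 and 11.58 on the differentiated arrays. Irf7, the factor that amplifies the response, read 7.97, 9.28 and 7.97 on the proliferative arrays and 11.17, 10.67 and 10.89 on the differentiated arrays, and Isg15, a ubiquitin-like protein, 8.54, 9.31 and 8.88 on the proliferative arrays and 13.08, 12.27 and 12.29 on the differentiated arrays. They rose 15.5-fold, 5.66-fold and 12.5-fold (adjusted p = 3.14e-06, adjusted p = 0.000214 and adjusted p = 3.21e-06), and proliferative replicate 2 was the highest of its group for each of the 3. Stat2 and Irf9, which carry the signal to the genes, rose 4.98-fold and 2.23-fold, the receptor Ifnar1 was not called (log2 change 0.39, adjusted p = 0.0686), and Irf3, a sensor-driven factor, fell 2.79-fold. The interferon-stimulated element, searched on both strands as TTTC, any 2 bases and TTTC again, lay in 24 of 38 of their promoters (63.2%), against 2.89% of tested genes and 3.77% of all promoters in the table. The promoters of Irf7 (chr1:205799974-205800273, minus strand) and Rsad2 (chr6:48788071-48788370, minus strand) are shown as the 2 members described above that hold the element, which is in capitals.
Irf7: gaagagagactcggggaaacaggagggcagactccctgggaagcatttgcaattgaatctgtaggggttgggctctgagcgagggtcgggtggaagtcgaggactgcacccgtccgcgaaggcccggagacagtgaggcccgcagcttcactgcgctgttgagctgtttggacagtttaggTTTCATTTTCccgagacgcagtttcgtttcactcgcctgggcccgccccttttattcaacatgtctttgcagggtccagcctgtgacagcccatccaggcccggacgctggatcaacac
Rsad2: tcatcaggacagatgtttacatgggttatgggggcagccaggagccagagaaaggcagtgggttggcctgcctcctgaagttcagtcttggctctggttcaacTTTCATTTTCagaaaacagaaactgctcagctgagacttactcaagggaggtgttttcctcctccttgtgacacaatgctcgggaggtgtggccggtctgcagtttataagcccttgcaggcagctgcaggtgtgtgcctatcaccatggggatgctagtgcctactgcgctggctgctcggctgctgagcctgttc
The element belongs to the promoters by which such genes are known, so its frequency describes the list.

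Complement and coagulation genes, counted as 1 group, rose in 12 of 27 cases with 1 fall, of a coagulation gene. The median change was 0.80, and 0.26 with low values at the floor. In both states 6 of the 27 lay under the floor, 2 of them called. C3, the central component, read 9.09, 9.36 and 9.20 on the proliferative arrays and 12.58, 12.40 and 12.58 on the differentiated arrays, and rose 9.90-fold (adjusted p = 5.22e-06). C1s and C1r, the proteases of the opening step, rose 8.36-fold and 7.60-fold (from 7.96, 7.52 and 8.02 to 10.87, 10.65 and 10.75). RT1-S3, a class I molecule that presents antigen, rose 12.1-fold (from 6.80, 7.12 and 6.58 to 10.85, 10.20 and 10.23) and B2m, its light chain, 1.56-fold. Microglial and macrophage markers moved with these groups: 7 of 13 tested rose and 1 fell. The median change of those tested came to 1.31, but only to 0.32 with low values at the floor. The 19 markers on the array averaged log2 levels of 4.40 to 5.18 over the proliferative arrays and 5.86 to 6.22 over the differentiated ones. These averages lay under the floor of the arrays in both states, where the signal is noisy, so the size of this shift is uncertain. Aif1 rose at least 3.51-fold (from 3.94, 4.76 and 5.07 to 7.91, 8.08 and 7.77), and Fcer1g, a chain of Fc receptors, 6.10-fold (from 6.80, 7.14 and 6.98 to 9.72, 9.62 and 9.42), while Itgam stayed under the floor on all 6 arrays. Their part in the interferon and complement results was not tested.

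Markers of other cell types are given for the composition of the cultures. Astrocyte markers rose in 15 of 17 tested cases, with a mean log2 level of 8.98 to 9.44 on proliferative and 11.46 to 11.61 on differentiated arrays. Myelinating oligodendrocyte markers rose in 10 of 12 and precursor markers in 9 of 10, with mean levels of 5.07 to 6.81 (proliferative) and 9.13 to 9.34 (differentiated) for the former and 8.14 to 8.36 and 10.73 to 10.79 for the latter. Mbp, myelin basic protein, went from 9.43, 11.10 and 9.23 to 14.61, 14.22 and 14.43, a rise of 22.6-fold, or 33.9-fold without proliferative replicate 2, the highest of its group. Neuron markers rose in 3 and fell in 9 of 18 cases (mean level 8.72 to 9.53 on proliferative and 7.95 to 8.11 on differentiated arrays). Fibroblast, meninges and mural cell markers rose in 4 and fell in 3 of 15, with mean levels of 5.75 to 5.93 and 5.92 to 6.29. The glial markers, the lipid, glutamate and matrix genes above moved together on the same arrays, and the part of cell composition in those results was not tested.

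The 10 largest rises and 10 largest falls in brain were set beside the spinal cord cultures, through the difference between both responses in the same fit. Low values were raised to the floor in the changes quoted here, and the p-values are of that fit. Over all 20834 probe sets, 42.9% were called different between the tissues in it, and 40.5% on the deposited values, against 17 of these 20 genes in each. Tril changed by 5.87 in brain and by -0.23 in spinal cord, a difference of -6.10 (adjusted p = 2.41e-09). Scrg1 changed by 4.95 and -1.47, a difference of -6.42 (adjusted p = 5.91e-10). Fxyd5 changed by -3.85 and 0.97, a difference of 4.82 (adjusted p = 9.25e-08), and Emp1 by -4.15 and -0.29, a difference of 3.86 (adjusted p = 2.33e-08). The tissues also differed before differentiation: on proliferative arrays Tril had a mean of 11.33 in spinal cord and 7.16 in brain, and Scrg1 one of 12.32 and 7.55. Ugt8 stood at 11.35 and 6.80 and Mag at 11.70 and 6.92, so that these 4 genes were already high in proliferative spinal cord cultures. Fxyd5 began at 9.93 and 10.16 and Emp1 at 12.60 and 13.49. Pnoc was near or under the floor on all 6 spinal cord arrays and could not show a fall there. Cd93, Plau, Aldh1a3 and Hbegf had negative changes in both tissues and a larger one in brain, by a difference of 2.72, 2.05, 1.37 and 1.98 (adjusted p = 0.000848, 0.000361, 0.0135 and 0.00978). They began lower in spinal cord, at means of 10.36, 8.84, 9.45 and 9.28, against 12.78, 10.81, 11.48 and 12.87 in brain. In differentiated spinal cord Cd93, Plau and Aldh1a3 lay near the floor, at 6.53, 6.12 and 6.17, which limits the fall that could be seen. The responses were not called different for Ifgga2l1 (difference -0.71, adjusted p = 0.32), Gchfr (1.36, adjusted p = 0.0843) and Areg (-1.02, adjusted p = 0.168). On the deposited values Areg was called (-2.19, adjusted p = 0.0162) and Aldh1a1 was not (-1.19, adjusted p = 0.409), and both have groups under the floor. With the floor Aldh1a1 differed by -4.55 (adjusted p = 1.05e-08). These 20 genes were chosen for a large change in brain, which by itself favours a larger change there than elsewhere.

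**Figure D5:**
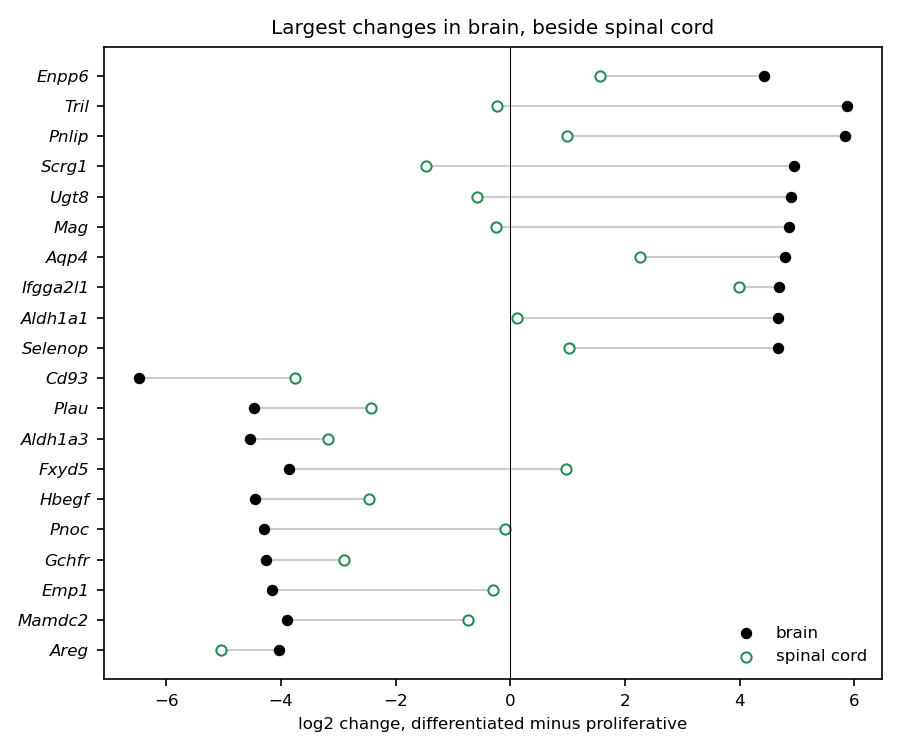
Log2 change, differentiated minus proliferative (x axis), of the 10 largest rises and 10 largest falls of brain (filled circles), beside the same change in spinal cord cultures (open circles), with values under an array's 40th percentile raised to it. Tril, Scrg1, Ugt8 and Mag lie far to the right in brain and at or left of 0 in spinal cord.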

How the data were processed

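RNA of whole cultures was hybridised to Rat230_2 arrays, 3 per group in 4 groups. The deposited table holds log2 signals, which the authors made with MAS5 and the affy package per the submitters' processing notes, and on each array the linear signals average 500 after trimming 2% at each end. MAS5 scales arrays one by one and leaves low signals noisy. Probe sets were tested where at least 3 of 12 arrays lay above their own 40th percentile (20834 of 31042), with limma 3.58.1 in R 4.3.3 (lmFit, eBayes with a variance trend, all 12 arrays, 8 residual degrees of freedom) and Benjamini-Hochberg adjustment at 0.05, after the code was tested on simulated data. Symbols came through Entrez IDs from RefSeq, build GRCr8, and promoters are RefSeq's, 1 for each symbol. The precision is limited by the 3 arrays of a group.

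Genes were named by a rule: the 15 largest called rises and 15 largest falls without overlap between the brain groups, up to 4 called members of a list in each direction, and defining members or partners of a pathway. The ranking set a group to the floor only where all its arrays lay under it, while the quoted folds raise each low array. By the quoted folds Mbp and Bcan rose more than Enpp6, which is among the 15. Among genes the rule allowed, some whose calls depended on single arrays or whose probe sets disagreed were left out after their values were seen. The members and lists were chosen with earlier results of these data known, and 38 genes caught only by name patterns were taken out of lists after their values were seen. The floor at the 40th percentile was chosen after seeing the data. Spinal cord arrays were otherwise not analysed here. Alternatives were a pseudocount of 64, median centring, quantile normalization, other filters, brain arrays alone, no variance trend, a replicate block and leaving out each brain array.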

Additional observations from a re-analysis of the deposited data

Results flagged for a closer look

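For 17 of the 20 genes with the largest changes in brain, the response in spinal cord cultures differed by the test of the difference (limma, adjusted p over all probe sets), as it did for 8434 of all 20834 probe sets (40.5%). Differences here are spinal cord minus brain, on the log2 scale and on the deposited values, without the floor. Among brain rises the difference was -4.57 for Enpp6 (adjusted p = 0.00182; -2.87 with the floor, since 2 of the 3 proliferative brain arrays lay under it), -6.10 for Tril (9.08e-09), -4.83 for Pnlip (2.08e-07), -6.42 for Scrg1 (1.76e-09) and -5.48 for Ugt8 (9.52e-07). It was -5.11 for Mag (4.02e-07), -2.52 for Aqp4 (0.000582) and -3.66 for Selenop (2.35e-05). In spinal cord Scrg1 fell (log2 change -1.47, adjusted p = 1.75e-05), and Tril, Ugt8 and Mag were not called. Brain falls were larger by 3.36 for Cd93 (0.00323), 2.01 for Plau (0.0033), 1.26 for Aldh1a3 (0.0292) and 1.98 for Hbegf (0.012), all of which started higher in brain, as given above. Fxyd5 fell in brain and rose in spinal cord (log2 change 0.97, adjusted p = 0.0281), a difference of 5.46 (8.57e-07). For Pnoc the difference of 4.07 (0.00028) compares a fall in brain with spinal cord arrays that all lay near or under the floor, where no fall could be seen. Falls were larger too for Emp1 at 3.86 (6.13e-08) and Mamdc2 at 2.46 (0.00306), which is not above background in differentiated spinal cord. With the floor Cd93 differed by 2.72, Fxyd5 by 4.82 and Mamdc2 by 3.16. Tril, Scrg1, Ugt8 and Mag were high in proliferative spinal cord already, as given above. Areg went the other way, with a larger fall in spinal cord of -2.19 (0.0162), a call that was lost with the floor.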

How the results depend on the processing

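Of the 329 named genes tested, 323 kept their call and direction in each of the 15 alternatives that tested them (the stricter filter at the 60th percentile tested 320), a share raised by leaving out genes known to lose theirs; the exceptions are Cd68, given above, and Ccl20 and the 4 genes below. Counts over probe sets stayed within 1.5 times of 4942 rises and 4821 falls, with 4165 to 4572 rises and 4109 to 4566 falls when 1 brain array was left out. Median centring gave 3760 rises and 6078 falls, quantile normalization 4578 and 5198, and the floor 5002 and 4804. Replicate numbers did not pair the arrays (same-number correlations of -0.020, 0.021 and -0.066, and not every array was closest to its own number). With the replicate block 4677 rose and 4509 fell. Acaca, Ifnar1 and Phgdh were called higher when brain arrays alone were fitted (adjusted p = 0.04, 0.0313 and 0.00612), as was Col1a1 without proliferative replicate 3 (0.0241). A pseudocount of 64 took the fold of Bmp2 to 8.68, Mag to 18.9, Myrf to 10.5, Pnlip to 37.5, Sema5a to 9.52, Ugt8 to 18.7, Epha2 to 4.21 and Fa2h to 3.66. Signal near background limits what can be said of changes below the floor.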

Other observations

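Members of several groups that enter no comparison above also changed. Their counts stand beside 24.1% rises and 28.5% falls over all genes. Clock genes fell in 10 and rose in 4 of 20 cases, with Per1, a clock repressor, lower by at least 2.14-fold (from 7.96, 7.64 and 7.41 to 7.10, 6.20 and 5.12) and Rora, a clock activator, higher by at least 2.67-fold (from 5.93, 5.40 and 6.70 to 7.63, 8.05 and 7.69). Vesicle traffic and release had 31 rises and 19 falls of 112, a share of rises near that over all genes and a lower share of falls. Among its members Snap25, of the neuronal fusion machinery, fell 6.70-fold (from 10.29, 10.06 and 9.68 to 7.36, 7.36 and 7.07). Sytl2, a vesicle-tethering protein, rose at least 13.1-fold (from 6.01, 5.67 and 5.47 to 10.22, 9.58 and 9.67). Tetraspanins and MAL proteins rose in 21 of 44 cases and fell in 10. Tspan2, found in oligodendrocytes, rose 11.5-fold (from 9.03, 8.99 and 9.42 to 12.80, 12.58 and 12.62), and Cd82 fell 3.16-fold. Annexins, galectins and S100 calcium-binding proteins, counted as 1 group, rose in 9 and fell in 7 of 23 cases. Of the S100 proteins S100b, which marks glia, rose 9.18-fold (from 10.79, 10.12 and 11.14 to 13.93, 13.79 and 13.94), and S100a13 and S100a3 rose too. S100a6 fell 3.15-fold (from 11.69, 11.61 and 12.03 to 10.18, 10.16 and 10.03) and S100a11 3.24-fold (from 13.22, 12.96 and 13.80 to 11.61, 11.60 and 11.68), and S100a10 also fell. Chemokines and their receptors rose in 11 and fell in 6 of 30 cases. Cxcl2 and Cxcl3, which recruit neutrophils, fell 7.11-fold and at least 5.53-fold, and Cxcl10 and Cxcl11, which interferon induces, rose 3.44-fold and at least 4.52-fold, as did Ccl20, 3.52-fold (adjusted p = 0.0188), a call lost without proliferative replicate 1 or 2 or differentiated replicate 2 (adjusted p = 0.0559, 0.0689 and 0.0514). Foxj1, the factor of ciliated cells, rose 3.53-fold (from 8.98, 7.71 and 7.81 to 9.996, 9.96 and 9.998). The semaphorins Sema3a and Sema3c fell at least 2.80-fold and 3.16-fold, and Sema4d rose at least 3.99-fold.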
